A study of Mus musculus with 12 samples.

Results

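L4/5 intratelencephalic (IT) neurons were picked out of single-nucleus RNA profiles of the mouse motor cortex by their transcripts. A nucleus counted as a member when it carried at least 2 UMIs (unique molecular identifiers, each a counted RNA molecule) of Slc17a7, the vesicular glutamate transporter of cortical excitatory neurons, and at most 1 UMI of Gad1 and Gad2 together, the enzymes that make GABA. It also had to carry at least 3 UMIs of Rspo1, Adam33 and Mamdc2 together, and at most 1 UMI of Otof, Stard8, Deptor and Rxfp2 together, genes of neighbouring IT classes. The members were thus selected on measured values of these 10 genes, which are described here and were left out of every test. Of 51926 barcodes, 51683 passed quality control (at least 500 genes and under 5% mitochondrial UMIs), 18489 were glutamatergic by the first conditions, and 552 were L4/5 IT nuclei.

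IT neurons are excitatory neurons whose axons stay within the telencephalon, reaching other cortical areas, the opposite hemisphere and the striatum. The motor cortex lacks a distinct granular layer 4, yet it holds Rorb-positive IT neurons at the border of layers 3 and 5 that receive thalamic input and project to the upper layers. RORB is a nuclear receptor that shapes layer 4 identity, CUX1 and CUX2 are homeobox factors of upper-layer neurons, and the secreted protein R-spondin 1, made from Rspo1, strengthens Wnt signalling.

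The tissue was the caudal forelimb area, the forelimb region of primary motor cortex, cut from the right hemisphere of 6 mice aged 13 weeks. Every mouse had water limited to 1 mL per day at home for the first 10 days. On days 11 to 13 the 3 control mice (numbers 1, 3 and 5) stayed on that schedule, while the 3 trained mice (2, 4 and 6) were head-fixed and pressed a lever with the left paw for part of their water (0.3 to 0.8 mL), 100 trials a session. The controls therefore shared the water restriction but neither head fixation nor the task, and neither strain nor sex is given in the sources used here. Each mouse was 1 library sequenced in a shallow and a deep run, which were joined in the deposited matrix and count as 1 replicate.

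Members numbered 97, 127 and 128 in control mice 1, 3 and 5, and 91, 67 and 42 in trained mice 2, 4 and 6. Their summed UMIs per mouse ranged from 598156 in trained mouse 6 to 1634811 in control mouse 5, so the trained group rests on fewer nuclei. The median nucleus held 11498.5 UMIs. The median per mouse was 11342 ± 555 UMIs (SD, n = 3) in controls and 11909 ± 1168 (SD, n = 3) in trained mice, a difference within the spread between mice (exact permutation test, two-sided, p = 0.6). With 3 mice against 3, no exact p can fall below 0.1. Scrublet called 32 members (5.80%) doublets. A barcode sequence seen in another library occurred in 7 members (1.27%, against 1.19% of all kept nuclei), and 0 members shared one with another member.

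Most members lay at or near the selection threshold. The median member held 3 UMIs of the selecting genes and the highest 11, and 287 members (52.0%) sat exactly at 3. All of Rspo1, Adam33 and Mamdc2 were seen in 120 members, 2 of them in 323 and 1 of them in 109. A further 679 nuclei that met the other conditions had 2 such UMIs and stayed just outside. Just outside, Rorb stood at 744 CPM (the usual count unit, here UMIs scaled to the total of the summed library) against 953 CPM in members with exactly 3 UMIs, lower in each of the 6 mice, and Cux2 at 249 against 256 CPM. Dgkb stood at 324 CPM just outside and 219 CPM just inside, Iqgap2 at 79.4 and 51.3 CPM and Thsd7a at 96.5 and 156 CPM. These are pooled values, and single mice departed from them. The order was reversed for Dgkb in trained mouse 6 and for Thsd7a in control mouse 3. For Iqgap2 it was reversed in trained mouse 4 and control mouse 5, and for Cux2 in control mice 1 and 5.

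The label was compared with 9 genes of the L4/5 IT marker list that the selection did not use and that reached 20 CPM in either population. Rorb was named beforehand as a marker of this population, and the list was chosen with earlier results of these data known. The comparison is therefore a description and not an independent check. Against other glutamatergic nuclei 5 were higher in every mouse sum without overlap (Rorb, Kcnh5, Cux1, Cux2 and Unc5d), 2 overlapped (Whrn and Lmo4) and 2 were lower. The counts of higher and lower genes were the same against Deptor nuclei. Against nuclei of the L2/3 gate described below, only 4 of 9 were higher without overlap and 0 were lower. The 2 genes lower than in other glutamatergic nuclei, Il1rapl2 and Etv1, are also listed as L5 IT markers. Il1rapl2 had a UMI in 23.6% of members against 37.3% of other glutamatergic nuclei, and Etv1 in 12.1% against 29.9%. Rorb had a UMI in 502 of 552 members (90.9%), against 21.9% of 525 nuclei from an L2/3 gate (at least 3 UMIs of Otof and Stard8 together) and 62.0% of 1702 nuclei from a Deptor gate (at least 3 UMIs of Deptor, a gene of L5 IT neurons). Nuclei of both gates held at most 1 UMI of the selecting genes. Oligodendrocyte-gated nuclei, which should lack the gene, had a Rorb UMI in 7.27%, at a median depth of 1856 UMIs against 11498.5 in members. When every nucleus was thinned to 2000 UMIs, 71.0% of members and 8.50% of oligodendrocyte nuclei had one. Cux2 was seen in 87.5% of members and in 91.4% of L2/3 but 10.6% of Deptor nuclei. Fezf2, a factor of subcortical projection neurons, was seen in 3.26%. Scnn1a, a layer 4 marker of sensory cortex, had a UMI in 2.17% of members and Endou in 0.906%.

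With the 10 genes of the selection set aside, Rorb had the highest ratio over other glutamatergic nuclei among genes at 20 CPM or more. Its level in members was 740, 1045 and 1349 CPM in control mice 1, 3 and 5 and 768, 761 and 675 CPM in trained mice 2, 4 and 6. Other glutamatergic nuclei reached 397 CPM at most, so the populations did not overlap in any mouse. The ratio was 3.57 (with 5 CPM added to both levels, as in all ratios here). These are descriptions without a test, because the nuclei were chosen by their transcripts. Of 6435 genes at 20 CPM or more in either population, 409 (6.36%) were higher in every member sum than in any other sum, and 345 (5.36%) were lower.

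The 15 genes with the highest ratios included receptors, guidance molecules and channels. Unc5d, a netrin receptor, stood at 1404 ± 344 CPM (SD, n = 6) in members and 499 ± 112 in other glutamatergic nuclei. Cux2 stood at 277 ± 33.9 CPM against 92.3 ± 5.37, and Kcnh5, a voltage-gated potassium channel of the ether-a-go-go family, at 451 ± 70.4 against 176 ± 35.6. Each of these 3 genes was higher in members in all 6 mice without overlap. Shisa6, an auxiliary protein of AMPA receptors, had a ratio of 2.90, Hgf, the hepatocyte growth factor, 2.70, and Cbln4, a secreted synaptic organizer, 2.51. The others were Gm40331, Smoc2, Rcan2, Rmst, Brinp3, Tmtc2, Prr16 and Kcnh8, with ratios from 2.44 to 3.12. The 10 lowest ratios ran from 0.175 for Iqgap2, a scaffold of the cytoskeleton, to 0.236 for Cdh9, a cadherin, and took in Bcl11b (0.218), which marks subcerebral projection neurons, the kainate receptor Grik3 (0.196), the calcium release channel Ryr3 (0.189), the adhesion molecules Dscaml1 (0.189) and Sdk2 (0.221), Rxfp1, Il1rapl2 and AI481877.

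**Figure D1:**
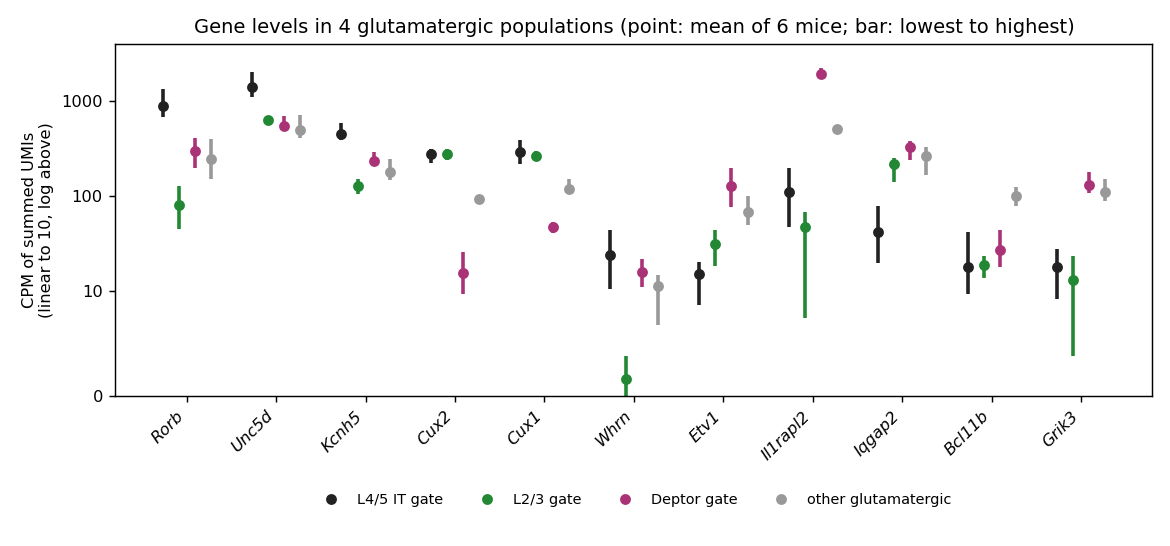
Levels of 11 genes in CPM of summed UMIs (axis linear up to 10 and logarithmic above) in L4/5 IT, L2/3, Deptor and other glutamatergic nuclei; points are means of 6 mice and bars run from the lowest to the highest mouse. Rorb, Unc5d and Kcnh5 stand highest in L4/5 IT nuclei, Cux2 is shared with L2/3 nuclei, and Il1rapl2 stands at 110 CPM against 1937 CPM in Deptor nuclei.

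Against their neighbours, the members combined a level of Cux2 like that of layer 2/3 nuclei with genes that were lower there. Relative to L2/3 nuclei, Rorb was 890 against 80.8 CPM (ratio 10.4), Shisa6 127 against 12.8 CPM (7.40) and Chrm2, the M2 muscarinic receptor, 172 against 27.4 CPM (5.46), while Cux2 overlapped at 277 against 274 CPM. The other genes of highest ratio were Zmat4, Hgf, Galntl6, St6galnac5 and Gm13629. Lowest were 6530403H02Rik, Dscaml1, Gm10754, Ccbe1, Dgkb, Egfem1, Fam19a1 and Qrfpr. Dgkb, which makes the diacylglycerol kinase that removes the lipid signal diacylglycerol, stood at 186 CPM in members and 1257 CPM in L2/3 nuclei. Relative to Deptor nuclei, Cux2 led (ratio 13.8), followed by Pld5, Cux1 (288 against 46.3 CPM), Smoc2, Zfhx4, Chrm2, Gm40331 and Gm16599. Il1rapl2, a synaptic adhesion gene of L5 IT neurons, was 110 against 1937 CPM, and Gm10635, Plcxd3, Iqgap2, Etv1, Bmpr1b, Raver2 and Grik3 were the other lowest.

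Genes of excitability were described list by list, with examples picked for their ratios after the values were seen. Of 36 potassium channel genes at 20 CPM or more, 11 were higher in every member sum than in any other glutamatergic sum and 1 was lower, with a median log2 ratio of 0.39. Over all 6435 genes, 6.36% were higher and 5.36% lower in this way. Kcnq3, a subunit of the M-current channel, was 1191 against 758 CPM and Kcnd2, a subunit of the transient A-type current, 2400 against 1607 CPM. The sodium-activated channel gene Kcnt1 was the lower one, at 43.9 against 72.7 CPM. Of 20 sodium, calcium and HCN channel genes, 3 were higher and 2 lower.

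The receptor counts below stand beside the same shares of all 6435 genes, 6.36% higher and 5.36% lower. Of 23 ionotropic genes, 2 were higher (Shisa6 and the AMPA subunit Gria4, 1528 against 928 CPM) and 6 were lower than in other glutamatergic nuclei. The lower ones included the AMPA subunit Gria3 (425 against 1020 CPM), the kainate subunit Grik4 (31.4 against 112 CPM) and Neto2, a kainate receptor partner (20.6 against 68.9 CPM). Of 6 metabotropic genes, the presynaptic receptors Grm2 (26.3 against 9.10 CPM) and Grm7 were higher and 2 were lower, Grm8 among them (253 against 565 CPM). Of 14 GABA receptor genes, 3 were higher and 1 lower, with a median log2 ratio of 0.25. The lower one was Gabrg3, a subunit of the GABA-A receptor, at 311 against 805 CPM.

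Against L2/3 nuclei, 15 of 45 cadherin and adhesion genes were higher without overlap and 9 were lower, beside 10.9% and 5.57% of all 6482 genes. Lrrc4c, a ligand for netrin-G, was 3971 against 1260 CPM, and Lrrtm4, which binds heparan sulfate at synapses, was 1541 against 6809 CPM. Of 35 axon guidance genes, 13 were higher and 6 lower, with Dcc, a netrin receptor, at 1021 against 430 CPM and Robo1, a Slit receptor, at 213 against 777 CPM. Of 22 vesicle release genes, 12 were higher and 2 lower, including Rims3, an active zone protein, at 120 against 48.3 CPM. Against Deptor nuclei, 7.91% of 6333 genes were higher and 5.13% lower, and 11 and 9 of 45 adhesion genes.

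The members were not uniform. A nucleus was called led by 1 of the 3 selecting genes when it held more UMIs of that gene than of either other. The groups held 112 Rspo1-led, 207 Adam33-led and 157 Mamdc2-led nuclei, and ties left 76 members in no such group. Rorb stood at 1233 CPM in Rspo1-led, 975.1 CPM in Adam33-led and 720 CPM in Mamdc2-led nuclei, pooled over mice (exact Poisson intervals of the first and the last, 1174 to 1295 and 683 to 759, cover counting error only). Whrn, a scaffold gene of layer 4 and 5 IT neurons, was 45.3, 30.2 and 9.24 CPM, and Dgkb ran the other way with 73.7, 165 and 258 CPM. The pooled order held within 6 of 6 mice for Rorb and 5 of 6 for Dgkb (not control mouse 3). Whrn was lowest in Mamdc2-led nuclei except in trained mouse 6, where Rspo1-led nuclei held 0, and it was higher in Rspo1-led than in Adam33-led nuclei in 3 of 6 mice. Trained mouse 6 had only 2 Rspo1-led nuclei (14504 UMIs), trained mouse 4 had 8 and control mouse 1 had 12. Rspo1-led values of these mice, mouse 6 above all, rest on few molecules. Thsd7a, a thrombospondin-domain gene, was 169 and 167 CPM in Rspo1-led and Adam33-led nuclei but 56.4 CPM in Mamdc2-led nuclei, and lower there than in Adam33-led nuclei in each of the 6 mice. Mgat4c was 380 CPM in Mamdc2-led nuclei and near 160 CPM in the others (163 and 160), but only in mice 1, 4 and 6 did the Mamdc2-led level exceed 500 CPM (634, 570 and 626). Because the groups were cut from the selecting genes after those genes were measured, they are ranges of a selection and no test is given.

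**Figure D2:**
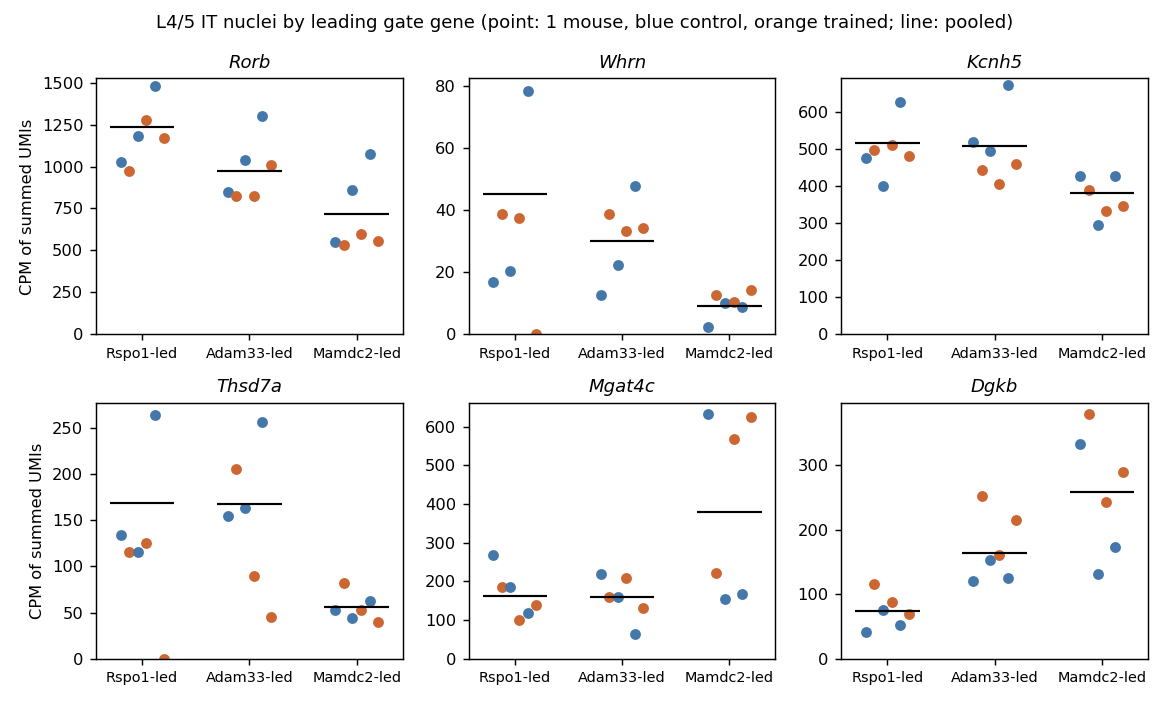
CPM of summed UMIs of 6 genes in L4/5 IT nuclei led by Rspo1, Adam33 or Mamdc2; points are mice (blue control, orange trained) and lines the pooled level. Rorb and Whrn are lowest and Dgkb highest in Mamdc2-led nuclei (720, 9.24 and 258 CPM pooled). Trained mouse 6 has only 2 Rspo1-led nuclei.

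The share of members was highest in a control mouse, but the groups overlapped. Members made up 2.57%, 2.80% and 5.25% of glutamatergic nuclei in control mice 1, 3 and 5 (exact 95% binomial intervals 2.09 to 3.12, 2.34 to 3.33 and 4.40 to 6.21) and 3.47%, 2.07% and 2.23% in trained mice 2, 4 and 6 (2.80 to 4.25, 1.61 to 2.62 and 1.61 to 3.00). The mean was 3.54 ± 1.49% in controls and 2.59 ± 0.768% in trained mice (SD, n = 3 each; exact permutation test, two-sided, p = 0.5; adjusted over 9 measures p = 0.788). Control mouse 5 stood apart from the other mice, and without it the difference of -0.951 percentage points became -0.0954. By leading gene, 21.6 ± 8.24% of control and 14.0 ± 10.4% of trained members were led by Rspo1 (SD, n = 3 each; exact permutation test, two-sided, p = 0.4). In trained mouse 6, 4.76% were led by Rspo1 and 47.6% by Mamdc2.

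Whether training changed gene expression within these nuclei was tested on UMIs summed per mouse, with edgeR's quasi-likelihood test. No gene of 9301 passed an adjusted p of 0.05 (0 called, 0%), and DESeq2 also called 0. At an unadjusted p under 0.05 edgeR found 384 genes (4.13%) and DESeq2 154. All 3 trained mice lay above all 3 controls for 442 genes (4.75%) and below for 462 (4.97%). The genes named next are the 10 of smallest p in each direction whose groups did not overlap, and each had an edgeR adjusted p of 0.999. They are measured differences between these mice, not called changes. Without control mouse 1, edgeR called 4 genes: Dgkb, Gpc6, 4930467D21Rik and Gm10754.

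Dgkb had the smallest p among genes higher in trained mice. Control mice 1, 3 and 5 held 177, 116 and 123 CPM (scaled by TMM, edgeR's library scaling, as are all training values). Trained mice 2, 4 and 6 held 259, 197 and 269 CPM. The lowest trained mouse lay just above the highest control. The log2 difference was 0.81 ± 0.18 (SE, n = 3 each), and it shrank to 0.32 when nuclei with 2 selecting UMIs were admitted, to 0.15 when 5 were required and to 0.38 when a Rorb UMI was required too. Within Adam33-led nuclei Dgkb stood at 120, 154 and 126 CPM (unscaled) in controls and 253, 162 and 216 CPM in trained mice, again without overlap. In Mamdc2-led nuclei it stood at 332, 131 and 173 CPM against 380, 243 and 290 CPM, with overlap. In Rspo1-led nuclei it stood at 41.8, 75.3 and 52.3 CPM against 116, 87.4 and 68.9 CPM, also with overlap. The value of trained mouse 6 there rests on 2 nuclei. The share of Mamdc2-led nuclei, where Dgkb was highest, was 27.3 ± 6.77% in controls and 34.0 ± 11.8% in trained mice (SD, n = 3 each). Without Rspo1-led nuclei the log2 difference was 0.75. The part of these shares in the Dgkb difference was not tested.

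The other higher genes were Arhgap18, a GTPase-activating protein, Iqgap2 (log2 difference 1.09 ± 0.28), Ece1, the endothelin-converting enzyme (0.62), Zbtb7c (0.90), Aff1, a scaffold of transcription elongation (1.29), Dgkg, another diacylglycerol kinase (0.90), Stac2 (1.06), Sdk2, a synaptic adhesion molecule (0.89), and Tbc1d1, a regulator of glucose transporter traffic (0.55). Arhgap18 had 4, 5 and 5 UMIs in controls 1, 3 and 5 and 11, 8 and 12 in trained mice 2, 4 and 6. It passed the filter on low counts (8.31 CPM in 3 mice) through the trained mice alone, so it had to be higher there and its p supports nothing. Aff1 reached that level in 1 control and 3 trained mice. Trained mouse 6, the mouse with the fewest members, had the highest level of Dgkb, Arhgap18, Aff1, Stac2 and Sdk2. Astrocyte markers were also highest in its members, at a summed 181 CPM, while controls ranged from 23.4 to 88.3 CPM and trained mice 2 and 4 held 40.3 and 45.5 CPM. Their part in these differences was not tested.

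Of the genes lower in trained mice, Flrt2, an adhesion ligand of latrophilins and Unc5 receptors, had the smallest p. Its levels were 396, 372 and 471 CPM in controls 1, 3 and 5 and 259, 252 and 298 CPM in trained mice 2, 4 and 6, a log2 difference of -0.62 ± 0.14 (SE). Grm3, a presynaptic and glial metabotropic glutamate receptor, was 639, 504 and 732 CPM against 350, 457 and 407 CPM, and its close relative Grm2 was 30.9, 39.2 and 32.4 CPM against 18.6, 20.4 and 18.9 CPM. In each of these 3 genes all trained mice lay under all controls. Wls, which escorts Wnt proteins to the cell surface, had a log2 difference of -1.00, and Prkaa2, a catalytic subunit of the energy sensor AMPK, -0.61. The rest were Tmem65 (-0.80), Tmem245 (-0.63), Cnih3, an AMPA receptor auxiliary protein (-0.69), Serpini1, the protease inhibitor neuroserpin (-0.67), and Tle1, a corepressor (-0.79).

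**Figure D3:**
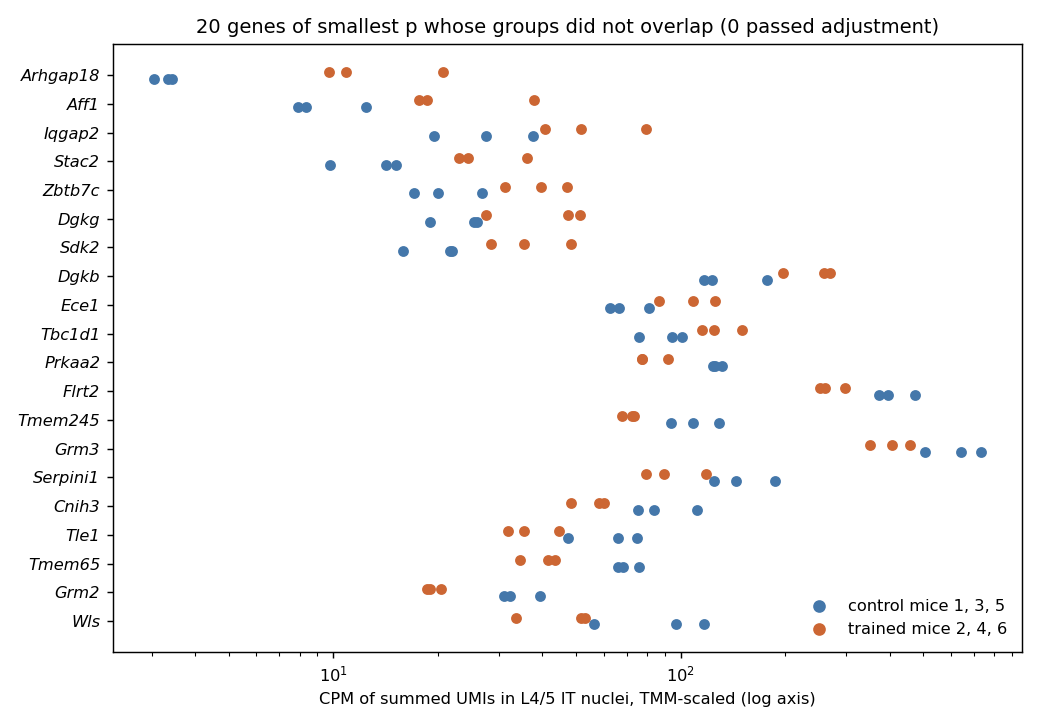
TMM-scaled CPM in L4/5 IT nuclei (logarithmic axis) of the 20 genes of smallest p with no overlap between groups; points are control mice 1, 3 and 5 (blue) and trained mice 2, 4 and 6 (orange). The groups are separate for every gene by construction, and 0 passed the adjusted threshold.

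By list, no member of any list passed edgeR's adjusted threshold. Rorb was 768, 1051 and 1346 CPM in controls 1, 3 and 5 and 793, 772 and 696 CPM in trained mice 2, 4 and 6 (log2 difference -0.49 ± 0.16, edgeR adjusted p = 0.999), so that 2 trained mice lay above the lowest control. Among 10 tested genes of the L4/5 IT marker list, 8 were lower in trained mice, with a median log2 difference of -0.21 against -0.0045 over all 9301 genes. Unc5d (-0.31) and Kcnh5 (-0.25) came after Rorb by p, and control mouse 5 was the highest mouse for all 3. The share of members with a Rorb UMI, after thinning to 5000 UMIs, was 84.5%, 86.3% and 89.6% in controls and 84.3%, 84.1% and 78.6% in trained mice, without overlap (exact permutation test, two-sided, p = 0.1, the smallest possible; adjusted p = 0.788). Without thinning it overlapped (92.7 ± 2.35% against 87.0 ± 7.58%, SD, n = 3 each).

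Of 6 metabotropic receptor genes, 3 lay lower in every trained mouse, Grm2 and Grm3 among them, where 4.97% of all genes did. Of 24 ionotropic receptor genes, 13 were higher in mean and 11 lower, and the smallest p was that of Cnih3, lower in every trained mouse as given above. Next by p, with overlapping groups, Grik4 (21.7 ± 7.05 against 42.6 ± 14.5 CPM, SD, n = 3 each) and Gria1 (449 ± 44.1 against 571 ± 123 CPM) were higher in mean. Of 46 cadherin and adhesion genes, 6 lay lower in every trained mouse and 1 higher (4.97% and 4.75% of all genes), the lower ones including Cdh8 (565 ± 95.2 against 400 ± 78.4 CPM) and Cntn5 (-0.32 on the log2 scale). Of 40 potassium channel genes, 4 had an unadjusted p under 0.05 (4.13% of all genes did), led by Kcnj3, a G protein-gated channel (log2 difference -0.44), Kcnt1 (0.50) and Kcnt2 (-0.30).

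Hormone, clock and energy genes were read the same way. Over all 9301 genes tested, 4586 were higher and 4715 lower (median -0.0045). Of 10 glucocorticoid response genes, 8 were higher in mean (median 0.25). Fkbp5, which lowers the hormone affinity of that receptor, was 21.7, 39.2 and 18.9 CPM in controls and 45.2, 42.1 and 74.1 CPM in trained mice, without overlap. Of all genes, 4.75% lay higher in every trained mouse in this way. Zbtb16 (0.31) and Klf9 (0.24) came next. Of 17 circadian genes, Rorb among them, 14 were lower in mean, with Cry2 at -0.34 and Dbp at -0.56 on the log2 scale. All 7 tested mitochondrially encoded genes were higher in mean (median 0.98), led by mt-Co3 (1.19), mt-Co1 (0.77) and mt-Co2 (0.98). In trained mouse 2 mitochondrial UMIs made up 0.0639% of the total, against 0.0115% to 0.0257% in the other mice. Without that mouse, mt-Co3 differed by -0.03, mt-Co1 by -0.02 and mt-Co2 by -0.36. Of 16 R-spondin and Wnt pathway genes, Kremen1 (0.78), a Dickkopf receptor, and Dkk3 (0.36) were higher and Ctnnb1, which makes beta-catenin, lower (47.6, 47.5 and 47.0 against 32.8, 31.2 and 39.6 CPM).

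The genes with the lowest ratios over other glutamatergic nuclei were also compared between groups. Of the 10 genes lowest relative to other glutamatergic nuclei, 8 passed the filter on low counts, and all 8 were higher in mean in trained mice, beside 4586 of all 9301 genes tested, with log2 differences from 0.16 (Cdh9) to 1.30 (Dscaml1) and a median of 0.82. Iqgap2, Ryr3 and Sdk2 did not overlap between groups. Dscaml1 was 15.0, 24.1 and 11.0 CPM in controls 1, 3 and 5 and 50.5, 23.1 and 48.2 CPM in trained mice 2, 4 and 6, so trained mouse 4 stayed among the controls. Bcl11b was 10.0, 10.3 and 14.6 CPM against 19.5, 10.9 and 43.1 CPM. The sign of Il1rapl2 (0.23) turned without trained mouse 2 (-0.45), and Cdh9 turned negative without control mouse 3 (-0.20) or trained mouse 6 (-0.21). Of the 15 genes with the highest ratios, 9 were lower and 6 higher in trained mice, with a median of -0.076. None of these genes passed edgeR's adjusted threshold.

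**Figure D4:**
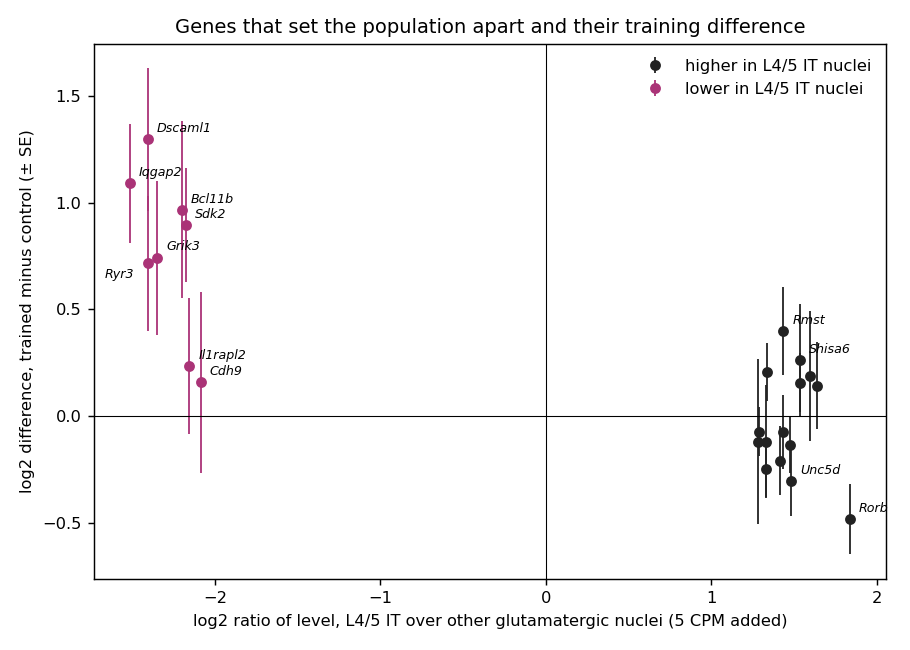
Training difference (log2, trained minus control, ± SE) of the genes with the highest and lowest ratios of level in L4/5 IT nuclei over other glutamatergic nuclei, against the log2 of that ratio. All 8 tested genes of low ratio lie above 0, and the 15 genes of high ratio lie between -0.49 and 0.40.

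Markers of other classes gave the context for those values. The summed L5 extratelencephalic markers (9 genes, Chrna2 at 0) ran from 37.6 to 45.1 CPM in controls. Trained mice 2, 4 and 6 held 52.4, 45.5 and 86.9 CPM, so that every trained mouse lay above every control, and 8 of 9 were higher in mean. This sum includes Bcl11b, itself one of the genes of lowest ratio above (10.0, 10.3 and 14.6 against 19.5, 10.9 and 43.1 CPM, TMM-scaled). The L5 IT sum includes Il1rapl2, another of them. These sums are therefore not independent of those genes, and sums without them were not taken. The L5 IT sum ran from 107 to 157 CPM in controls and from 88.6 to 217 in trained mice, and the L6 corticothalamic sum from 103 to 150 and from 100 to 159 CPM. The L2/3 sum also overlapped. L6b and oligodendrocyte precursor sums were lower and the vascular sum higher in every trained mouse than in any control, all at 21.2 CPM or less. In other glutamatergic nuclei the L5 extratelencephalic, L5 IT and corticothalamic sums averaged 175, 634 and 403 CPM. Oligodendrocyte markers ran from 122 to 283 CPM in controls and from 94.99 to 236 in trained mice. The vascular markers Ly6c1 and Vtn, the striatal markers Drd2 and Adora2a and the L6b markers Nxph4 and Moxd1 were at 0. Without 60 members rich in Tshz2, Foxp2 or Il1rapl2, a set chosen after seeing the data, the log2 difference was 0.76 for Dgkb (0.81 with them), 1.11 for Iqgap2 (1.09), 1.17 for Dscaml1 (1.30), 0.87 for Sdk2 (0.89), 0.38 for Ryr3 (0.72) and 0.16 for Cdh9 (0.16). Il1rapl2, by which members were removed, went from 0.23 to -1.23, and Bcl11b and Grik3 were not tested in that set. The part of the other markers in the training differences was not tested.

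Whether training acted differently here than in layer 2/3 was asked by an interaction test within mice. No gene of 10327 passed (0 called, 0%; 491 at an unadjusted p under 0.05; the smallest edgeR adjusted p was 0.101). The genes of smallest p were Hs3st4, a heparan sulfate sulfotransferase (difference of log2 effects 1.59 ± 0.32), Dgkb (0.79 ± 0.16) and Foxp2, a forkhead factor of deep layers (1.86 ± 0.39). With the opposite sign came Arc (-0.97 ± 0.22), Vmp1 (-0.72) and Btg2 (-1.43). Fitted apart in members and in L2/3 nuclei, the log2 differences were 0.02 and -1.52 for Hs3st4, 0.81 and -0.02 for Dgkb and 1.04 and -0.69 for Foxp2. They were -0.38 and 0.72 for Arc, -0.20 and 0.50 for Vmp1 and -0.32 and 1.20 for Btg2. The Hs3st4 difference thus lay in L2/3 nuclei, and those of Arc, Vmp1 and Btg2 lay more there than in members. Arc, an activity-regulated gene of synaptic plasticity, was 83.7, 139 and 195 CPM in control and 78.0, 161 and 85.5 CPM in trained members, against 30.3, 47.9 and 57.3 and then 50.0, 114 and 50.6 CPM in L2/3 nuclei. Its groups overlapped in both populations. Single mice moved the count: leaving out control mouse 1 gave 14 genes, control mouse 3 gave 6, trained mouse 4 gave 2 and trained mouse 6 gave 3. Without doublets Dgkb alone was called (difference 0.96, edgeR adjusted p = 0.0368).

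Against Deptor-gated L5 IT nuclei, edgeR called 2 of 11994 genes (0.0167%), Dgkb and AI481877. Dgkb (mouse chromosome 12, 37817726 to 38634239, plus strand, GENCODE M21 on GRCm38) was higher by 0.81 on the log2 scale in trained members and by 0.01 in trained Deptor nuclei, where it stood at 895, 797 and 769 CPM in controls 1, 3 and 5 against 867, 790 and 813 CPM after training. The difference of the effects was 0.80 ± 0.14 (SE), edgeR adjusted p = 0.0236, and all 3 trained mice lay above all 3 controls in members. The call was lost without trained mouse 2 (edgeR adjusted p = 0.165), control mouse 3 (0.21), control mouse 5 (0.18) or trained mouse 6 (0.171). Leaving out control mouse 1 gave 16 called genes, and leaving out trained mouse 4 gave 4. The Dgkb call was lost as well without the 60 members rich in other classes' markers (0.174). With both populations admitted at 2 UMIs the difference was 0.30 (edgeR adjusted p = 1).

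AI481877 (chromosome 4, 59043753 to 59138983, minus strand) rested on few molecules. Control members held 0 UMIs in all 3 mice, and trained members held 6, 0 and 11 UMIs in mice 2, 4 and 6, from 9 nuclei. Summed over groups, the trained level was at least 9.79-fold higher than the limit that 3 counts in the controls allow (6.77 against 0.692 CPM). The call (edgeR adjusted p = 0.0472) was lost without control mouse 3 (0.21), control mouse 5 (0.263), trained mouse 2 (0.147) or trained mouse 6 (0.607). One nucleus of trained mouse 6 with 43001 UMIs held 8 of the UMIs, and 1 of the 9 nuclei was called a doublet. Deptor nuclei held the gene at 6.80, 6.71 and 8.90 CPM in controls, against 4.61, 3.98 and 5.00 CPM in trained mice. The next genes, which did not pass, were Meis2 (difference 1.15, edgeR adjusted p = 0.0595), Mid1 (-1.30, 0.0721), 4930467D21Rik (-1.82, 0.0976) and Mlip (-0.57, 0.336). Fitted apart in members and in Deptor nuclei, the log2 differences were 0.55 and -0.68 for Meis2 and -0.57 and 0.82 for Mid1. They were -1.65 and 0.33 for 4930467D21Rik and -0.36 and 0.24 for Mlip.

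Transcripts of immediate early genes, which strong synaptic input induces rapidly, were frequent in L4/5 IT nuclei of both groups. After thinning to 2000 UMIs, 25.8%, 38.6% and 53.1% of members in control mice 1, 3 and 5 and 34.1%, 50.7% and 23.8% in trained mice 2, 4 and 6 had at least 3 UMIs of the 27 listed genes. The groups overlapped fully, at 39.2 ± 13.7% and 36.2 ± 13.6% (SD, n = 3 each; exact permutation test, two-sided, p = 0.7). The same share was lower in L2/3 nuclei (11.2% to 30.0%), Deptor nuclei (14.2% to 37.4%) and oligodendrocyte nuclei (8.98% to 18.7%) of every mouse. Control mouse 5 and trained mouse 4 were the 2 highest mice in members, L2/3 and Deptor nuclei. In oligodendrocyte nuclei trained mouse 4 was highest, and control mouse 5 (15.4%) was nearly level with control mouse 3 (15.2%). Oligodendrocyte nuclei below 2000 UMIs (2441 of 4265) were left out, and 0 members were.

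**Figure D5:**
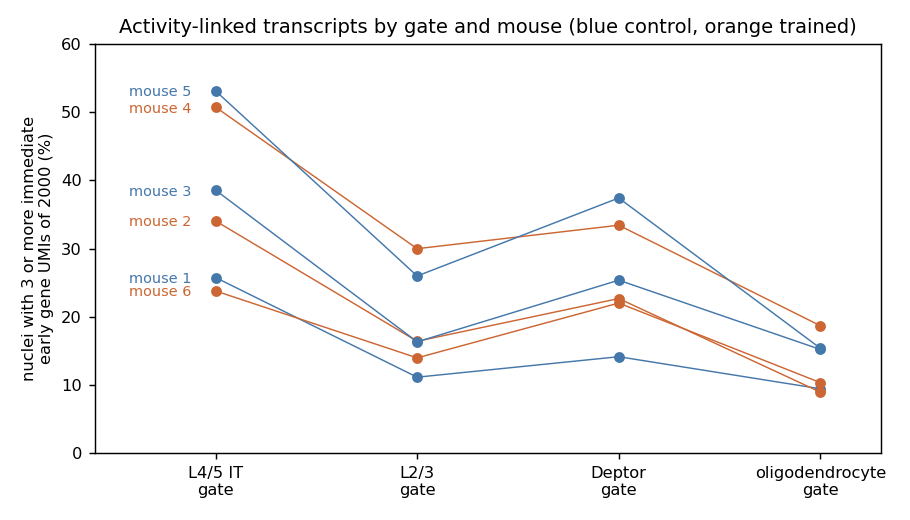
Share of nuclei with at least 3 immediate early gene UMIs after thinning to 2000 UMIs, by population and mouse (blue control, orange trained). In each mouse L4/5 IT nuclei have the highest share, from 23.8% to 53.1%. Mice 4 and 5 stand above the others in the 3 neuronal populations, and mouse 5 is nearly level with mouse 3 in oligodendrocyte nuclei (15.4% and 15.2%).

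Fos, a subunit of the AP-1 factor, was 31.8, 31.7 and 57.4 CPM in controls 1, 3 and 5 and 23.02, 76.0 and 34.5 CPM in trained mice 2, 4 and 6. Npas4, a factor induced by calcium entry, was 14.2, 23.4 and 62.3 CPM against 20.4, 44.8 and 17.2 CPM. Egr1, a zinc-finger factor, was 140, 205 and 236 CPM against 112, 201 and 107 CPM, the smallest p of the list. None of the 22 tested genes had an unadjusted p under 0.05 (0 by edgeR), 16 were lower and 6 higher in trained mice, and their median log2 difference was -0.28. Over all 9301 genes, 4715 were lower and 4586 higher. With 1 mouse left out, 13 of the 22 changed sign, among them Fos (-0.57 to 0.46), Npas4 (-0.84 to 0.51) and Btg2 (-1.15 to 0.22). Control mouse 5 or trained mouse 4 was the highest mouse for each of the 22, namely control mouse 5 for Arc, Btg2, Cyr61, Dusp6, Egr1, Egr3, Egr4, Fbxo33, Fosb, Nr4a1, Nr4a3 and Npas4, and trained mouse 4 for Dusp1, Fos, Fosl2, Gadd45b, Ier2, Ier5, Jun, Junb, Jund and Nr4a2. In members, Egr1 averaged 164 CPM (unscaled) against 50.7 CPM in L2/3 and 93.9 CPM in Deptor nuclei. Most listed genes did not separate the populations. Of 15 at 20 CPM or more, 0 were higher without overlap than in other glutamatergic nuclei (6.36% of all genes were). Against L2/3 nuclei 1 of 15 was higher in this way (10.9% of all genes), and against Deptor nuclei 1 of 15 (7.91%).

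The promoters of 2 of these genes are shown because they hold the cAMP response element TGACGTCA, the site bound by the activity-regulated factor CREB, in capitals below. Promoter sequences from RefSeq (GRCm38.p6) were at hand for 17 of the 22 genes, and 2 of the 17 (11.8%) held the element between 250 bases before and 50 after the start, against 1.79% of all 32851 promoters. The element reads the same on both strands, a match is a description of the letters, and the others lack these letters in this window only. The stretch shown for Btg2, an antiproliferative gene, is chr1:134079156-134079405 (minus strand), and that for Dusp1, a MAP kinase phosphatase, is chr17:26508473-26508722 (minus strand). Each run gives the 250 bases before the start, 5′ to 3′, with the element beginning 166 and 143 bases before the start.
Btg2: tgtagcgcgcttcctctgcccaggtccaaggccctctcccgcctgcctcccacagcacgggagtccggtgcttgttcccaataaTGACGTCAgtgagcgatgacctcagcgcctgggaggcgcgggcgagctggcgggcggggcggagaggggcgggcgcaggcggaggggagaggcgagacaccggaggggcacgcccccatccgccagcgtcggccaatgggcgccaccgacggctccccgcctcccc
Dusp1: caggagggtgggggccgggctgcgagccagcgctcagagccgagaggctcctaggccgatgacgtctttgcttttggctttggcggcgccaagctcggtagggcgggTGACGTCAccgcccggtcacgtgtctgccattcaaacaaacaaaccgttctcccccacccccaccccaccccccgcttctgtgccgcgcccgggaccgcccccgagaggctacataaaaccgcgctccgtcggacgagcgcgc

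Btg2 was 26.7, 23.4 and 57.4 CPM in controls 1, 3 and 5 and 16.8, 57.0 and 15.5 CPM in trained mice 2, 4 and 6. Dusp1 was 31.8, 46.8 and 62.3 CPM against 26.6, 63.8 and 20.7 CPM. Both genes were highest in control mouse 5 and trained mouse 4 and lowest in trained mouse 6, so their groups overlapped.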

How the data were processed

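Nuclei of 6 mice were profiled with 10x Genomics 3′ v3.1 chemistry. The deposited matrices hold raw UMI counts per gene and barcode, with the shallow and deep run of each mouse joined; per the submitters' processing notes they were made with Cell Ranger 4.0.0 on mm10. Barcodes with at least 500 genes and under 5% mitochondrial UMIs were kept. Members and gene lists were chosen with earlier results of these data known. UMIs of the members were summed per mouse and tested with edgeR 4.0.16 (quasi-likelihood test, TMM scaling, filterByExpr, Benjamini-Hochberg adjustment, threshold 0.05) in R 4.3.3; DESeq2 1.42.0 was an alternative. Differences between populations in the training effect were tested as an interaction with mouse as a block. The 10 genes of the selection were left out. Measures per mouse were compared by exact permutation tests. Doublets were called per mouse by Scrublet (scanpy 1.11.5, expected rate 0.06). Scripts were tested on simulated data. Named genes are the detected L4/5 IT markers and immediate early genes, and the 10 of smallest p in each training direction with groups apart (predicted genes excepted). The 3 of smallest p of each list shown and of each direction of an interaction are named too. So are those of highest and lowest level ratio (15 and 10 against other glutamatergic nuclei, 8 and 8 against each gate). Others were named after their values were seen. The lists shown for training are a selection. Lists of GABA receptor, axon guidance, delayed activity and vesicle release genes, among others, were fitted for training but are not shown. P-values for training rest on the spread between 3 mice per group, which edgeR moderates with the spread of all other genes. Those of the interactions rest on the spread of differences between populations within mice. Intervals cover counting error only. Results of a few genes are not reported here.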

Additional observations from a re-analysis of the deposited data

Results flagged for a closer look

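The training effect on Dgkb differed between L4/5 IT and Deptor-gated nuclei by edgeR's interaction test (adjusted p = 0.0236). The difference of log2 effects was 0.80, with all 3 trained mice above all 3 controls in L4/5 IT nuclei. The call was lost without trained mouse 2 (edgeR adjusted p = 0.165), control mouse 3 (0.21), control mouse 5 (0.18) or trained mouse 6 (0.171). It was also lost without members rich in other classes' markers (0.174), and with both gates at 2 UMIs, where the difference was 0.30.

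The training effect on AI481877 also differed from that in Deptor-gated nuclei (edgeR adjusted p = 0.0472), a call lost in 4 of the 6 fits that left out 1 mouse. It rests on 17 UMIs in 9 trained nuclei and 0 in controls, and 8 of the UMIs lay in 1 nucleus.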

How the results depend on the processing

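No paired analysis was possible because the control and trained mice share no replicate number. Without the filter on low counts edgeR called 14 genes for training, 18 for the interaction with L2/3 nuclei and 12 for that with Deptor nuclei; leaving out 1 mouse at a time gave 0 to 4, 0 to 14 and 0 to 16 genes. The Deptor count was 1 with DESeq2 size factors, 8 with both gates at 2 UMIs, 4 without doublets, 0 without members rich in other classes' markers and 1 without Rspo1-led members, and the L2/3 count was 1 without doublets. These member sets, and doublets left out of the interactions, were chosen after seeing the data. The cause of these shifts was not tested. The AI481877 call was lost with DESeq2 size factors (edgeR adjusted p = 0.0615), without members rich in other classes' markers (0.862), without Rspo1-led members (0.184) and with both gates at 2 UMIs (1).

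Outside the immediate early genes, log2 differences that changed sign were mt-Co3 (-0.027), mt-Co1 (-0.024), mt-Co2 (-0.36) and Il1rapl2 (-0.45) without trained mouse 2, mt-Co2 (-0.20) and Il1rapl2 (-0.33) with mitochondrial percent as a covariate, Il1rapl2 (-1.23) without members rich in other classes' markers, which removes nuclei by this gene, Cdh9 without control mouse 3 (-0.20), without trained mouse 6 (-0.21), with a Rorb UMI required (-0.14) and with median UMIs as a covariate (-0.46), and Prex2 against L2/3 nuclei without doublets (-0.18). Their highest values with 1 mouse left out were 1.58 (mt-Co3), 1.08 (mt-Co1), 1.34 (mt-Co2), 0.55 (Il1rapl2) and 0.45 (Cdh9). Of the other named-gene values, 881 kept direction and side of the threshold, 27 gained the call and 14 lost it. Of the 22 immediate early genes, 13 changed sign with 1 mouse left out and 6 under another setting.

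With 1 mouse left out, trained minus control ranged from -1.44 to -0.0954 percentage points for the share of members, -5.62 to -2.61 for Rorb, -10.2 to 4.03 for immediate early genes, -13.3 to -3.03, -1.46 to 5.78 and -0.110 to 10.3 for nuclei led by Rspo1, Adam33 and Mamdc2, and -0.00358 to 0.0226 for mitochondrial UMIs. Median UMIs ranged from 196.8 to 1240.8 and median genes from -82.7 to 63.8. The 42 members of trained mouse 6 set the lowest depth, 598156 UMIs.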

Other observations

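A few members carried many UMIs of genes of other classes. At least 3 UMIs of Tshz2, a marker of near-projecting neurons, were seen in 4 members, 2 of them in control mouse 1 and 1 each in trained mice 4 and 6. At least 3 UMIs of Foxp2 were seen in 17 members and at least 5 of Il1rapl2 in 44. Together these were 60 members, with 12, 10 and 10 in control mice 1, 3 and 5 and 11, 11 and 6 in trained mice 2, 4 and 6.

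Tshz2 stood highest in Mamdc2-led nuclei, at 75.9 CPM against 1.53 and 1.55 CPM in Rspo1-led and Adam33-led nuclei. That level came from control mouse 1 (230 CPM) and trained mice 4 (148 CPM) and 6 (78.7 CPM), the mice of the 4 members named above, while mice 2, 3 and 5 held 0, 6.72 and 0 CPM. Bdnf, the neurotrophin, stood at 114 CPM in Rspo1-led and 62.6 CPM in Adam33-led nuclei and was higher in the former in 6 of 6 mice. Trained mouse 6 had only 2 Rspo1-led nuclei, so its value rests on few molecules. Ptprm, an adhesion phosphatase, stood at 174 CPM in Adam33-led and 71.3 CPM in Mamdc2-led nuclei, higher in 6 of 6 mice. These genes were picked after their values were seen.

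Prex2, named after its value was seen, had a difference of training effects against L2/3 nuclei of 2.37 ± 0.49 on the log2 scale (edgeR adjusted p = 0.101). Fitted apart, the log2 difference was 0.55 in members and -1.67 in L2/3 nuclei. In L2/3 nuclei control mouse 5 held 83.4 CPM, and the other mice held 4.03 to 18.7 CPM. Without doublets the difference of effects changed sign, to -0.18 ± 0.79 (SE).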
